A study of Mus musculus with 8 samples.

Results

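The H2 region of mouse chromosome 17 was examined as a set of chromatin contacts in embryonic stem cells. It was taken as a stretch of 3.9 Mb that begins at chr17:33600001 in the genome build GRCm38, and its outermost anchors lie at Zfp414 and Olfr97. Its members were all deposited loops with both anchors in that stretch, after 73 loops with an anchor within 5 kb of the start of Pou5f1 were left out. This left 1694 loops between 79 anchors, of 415681 loops between 30044 anchors in the whole table. A loop is a pair of anchors, an anchor is a run of touching 5-kb bins, and the value of a loop is its number of read pairs. The choice used positions and no measured value, though it was made with earlier results of these data known.

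The libraries were made by H3K27ac HiChIP, an assay that ligates neighbouring stretches of crosslinked chromatin and enriches the ligated pairs for histone H3 acetylated at lysine 27, a mark of active promoters and enhancers. Chromatin was cut with micrococcal nuclease and read pairs of 150 bp were sequenced. The 8 libraries are pairs of technical replicates from 4 lines. B6 (line B6 5-1) derives from C57BL/6J and D2 (line D2 5-5) from DBA/2J, both inbred. B6-13D2 (line QJ 6-1) derives from a congenic strain that carries a chromosome 13 interval of D2 on B6, and D2-13B6 (line XE 2-4) from the reciprocal congenic strain. Chromosome 17, with the H2 region, therefore comes from C57BL/6J in B6 and B6-13D2, called the B6 background here, and from DBA/2J in D2 and D2-13B6, called the D2 background. All lines were grown in serum medium with LIF and the inhibitors PD0325901 and CHIR99021. Each genotype is 1 cell line and its replicates are technical, so no p-value here speaks to variation among lines of the same genotype. Most p-values set differences against the variation of repeated libraries. Fits with replicates summed per line use the spread between the lines of a background, which also differ in the interval. The exact permutation test of count shares exchanges libraries and treats technical replicates as separate units.

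The H2 region is the major histocompatibility complex of the mouse. Its class Ia genes (H2-K1, H2-D1) and class II genes (such as H2-Ab1 and H2-Eb1) encode the proteins that present peptides to T cells, and its class Ib genes of the Q, T and M groups encode related proteins with narrower roles. Between and around them lie genes that have nothing to do with antigen presentation, such as those for complement, heat shock proteins, splicing and translation factors, TRIM proteins, the imprinting regulator Zfp57 and olfactory receptors. C57BL/6J and DBA/2J carry different H2 haplotypes, and the number and sequence of class Ib genes differ between haplotypes. Both backgrounds also differ over the rest of the genome, so an effect of the H2 sequence itself and an effect of other loci cannot be told apart here.

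Promoters are shown for 4 genes that carry the main results: Ubd, whose anchor was lower in D2 background, H2-T3 and Zfp57, whose anchors were higher, and H2-K1, a class Ia gene whose start had no anchor. Sequences are those of RefSeq on GRCm38.p6, from 250 bases before to 50 bases after the start and 5′ to 3′ on the gene's strand, at chr17:37193642-37193941 (plus strand) for Ubd, chr17:36190102-36190401 (minus) for H2-T3, chr17:37000913-37001212 (plus) for Zfp57 and chr17:34000298-34000597 (minus) for H2-K1. H2-T24 is named only. Capitals mark matches, on either strand, to ATTGG, known as the core of NF-Y sites, to GGGCGG, known from Sp1 sites, to TATAAA, the core promoter box of that name, to the E box CACGTG and to an interferon response motif. No matches overlap in these 4 sequences. The interferon response motif was searched as a fixed pattern of letters, and none of the 4 sequences matched it. Variants of the pattern were not searched. The lack of a match therefore does not show that a promoter, such as that of H2-K1 or H2-T3, has no interferon response element.
Ubd: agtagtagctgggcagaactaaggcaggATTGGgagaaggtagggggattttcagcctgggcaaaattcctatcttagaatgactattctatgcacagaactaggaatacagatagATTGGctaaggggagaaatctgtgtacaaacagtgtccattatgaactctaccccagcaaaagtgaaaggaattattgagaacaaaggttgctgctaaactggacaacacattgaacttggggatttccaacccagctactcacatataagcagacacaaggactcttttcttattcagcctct
H2-T3: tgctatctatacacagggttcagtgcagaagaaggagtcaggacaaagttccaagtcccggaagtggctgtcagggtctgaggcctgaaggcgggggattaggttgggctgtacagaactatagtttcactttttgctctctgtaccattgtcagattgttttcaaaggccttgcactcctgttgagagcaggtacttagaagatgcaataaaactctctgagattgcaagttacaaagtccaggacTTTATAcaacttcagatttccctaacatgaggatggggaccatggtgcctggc
Zfp57: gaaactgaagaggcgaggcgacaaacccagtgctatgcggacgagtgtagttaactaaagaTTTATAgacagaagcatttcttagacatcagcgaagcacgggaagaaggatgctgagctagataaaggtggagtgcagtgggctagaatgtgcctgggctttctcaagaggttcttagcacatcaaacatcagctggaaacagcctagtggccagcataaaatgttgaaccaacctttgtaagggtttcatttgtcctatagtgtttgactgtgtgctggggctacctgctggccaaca
H2-K1: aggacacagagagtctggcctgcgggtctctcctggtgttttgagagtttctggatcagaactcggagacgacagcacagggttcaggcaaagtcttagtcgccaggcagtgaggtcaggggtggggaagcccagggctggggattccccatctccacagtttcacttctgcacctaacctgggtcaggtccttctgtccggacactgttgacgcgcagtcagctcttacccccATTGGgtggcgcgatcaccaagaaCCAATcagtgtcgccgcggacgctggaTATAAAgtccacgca

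The Ubd promoter held 0 CpG dinucleotides at 42.3% GC and 2 matches to ATTGG. The H2-T3 promoter held 2 CpG and 1 match to TATAAA, the Zfp57 promoter 6 CpG and 1 match to TATAAA, and the H2-K1 promoter 14 CpG, 2 matches to ATTGG and 1 to TATAAA. Over all 32851 promoters of the table the median was 7 CpG and 52.7% GC. ATTGG was present in 37.4% of them, TATAAA in 13.6%, GGGCGG in 35.7%, CACGTG in 7.15% and the interferon response motif in 3.44%. Within the H2 region, 142 promoters (105 genes) started in a member anchor and had a median of 16 CpG, and 101 promoters (90 genes) started outside member anchors and had a median of 4. A match to letters describes the sequence and shows no binding, and the lack of a match does not show that a site is absent.

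The libraries held 737955 to 1425304 counts in all, and 4810 to 11468 counts in the H2 region, which is 0.652% to 0.805% of a library. A single count over all libraries was the whole evidence for 409 of the 1694 loops (24.1%), and 298 passed the filter of at least 5 counts in at least 2 libraries, holding 87.7% to 90.6% of the region's counts. A tested loop had a median of 6 to 11 counts in a library. An anchor's level is the sum of all loops that end at it, including those to anchors outside the region, and 74 of the 79 anchors passed the filter of at least 10 counts in at least 2 libraries. Levels are given as CPM, counts scaled to the size of the library with TMM factors. Of 10 embryonic stem cell marker genes, 9 had an anchor at their start, with a summed level of 3251 to 4035 CPM over the lines, against 91.5 to 125 CPM for the 7 of 10 fibroblast genes with one, 13.7 to 26.1 CPM for the 2 of 5 primed epiblast genes with one, and none for 6 endoderm genes.

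The anchors lay mostly at genes. A protein-coding start lay in 56 of the 79 (70.9%), while the figure for all anchors of the series was 26.98%. They were 5 to 70 kb wide with a median of 10 kb, and loops between different anchors spanned a median of 671 kb. The region was divided at the borders of named genes into 7 segments: the K end with 13 anchors, class II with 5, class III with 21, D and Q with 2, the framework genes from Pou5f1 to before H2-T24 with 17, T with 7, and M with the olfactory receptors, from Trim39 on, with 14. The class II segment was 472 kb long and the D and Q segment 243 kb.

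The main comparison was between backgrounds, the mean of D2 and D2-13B6 minus the mean of B6 and B6-13D2, with the quasi-likelihood test of edgeR and Benjamini-Hochberg adjustment over all anchors or loops of the genome at 0.05. Called means past that threshold. Of 74 tested anchors, 22 (29.7%) were called, 13 higher and 9 lower in D2 background, where 24.8% of 21210 anchors of the genome were called, 11.9% higher and 13.0% lower. Of 298 tested loops, 29 (9.73%) were called, 13 higher and 16 lower, where 8.85% of 44706 loops were, 4.28% higher and 4.57% lower. The H2 region as a whole was thus called about as often as the genome, and its median log2 difference was 0.08 for anchors and 0.08 for loops, against 0.00 and 0.02 over all tested. The calls were unevenly placed in the region. Of the 22 called anchors, 6 lay among the 7 of the T segment, 6 among the 10 tested of the M and olfactory segment, 6 among the 17 of the framework segment and 3 among the 13 of the K end, against 1 among the 20 tested of class III and none among the 5 of class II and the 2 of D and Q.

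**Figure D1:**
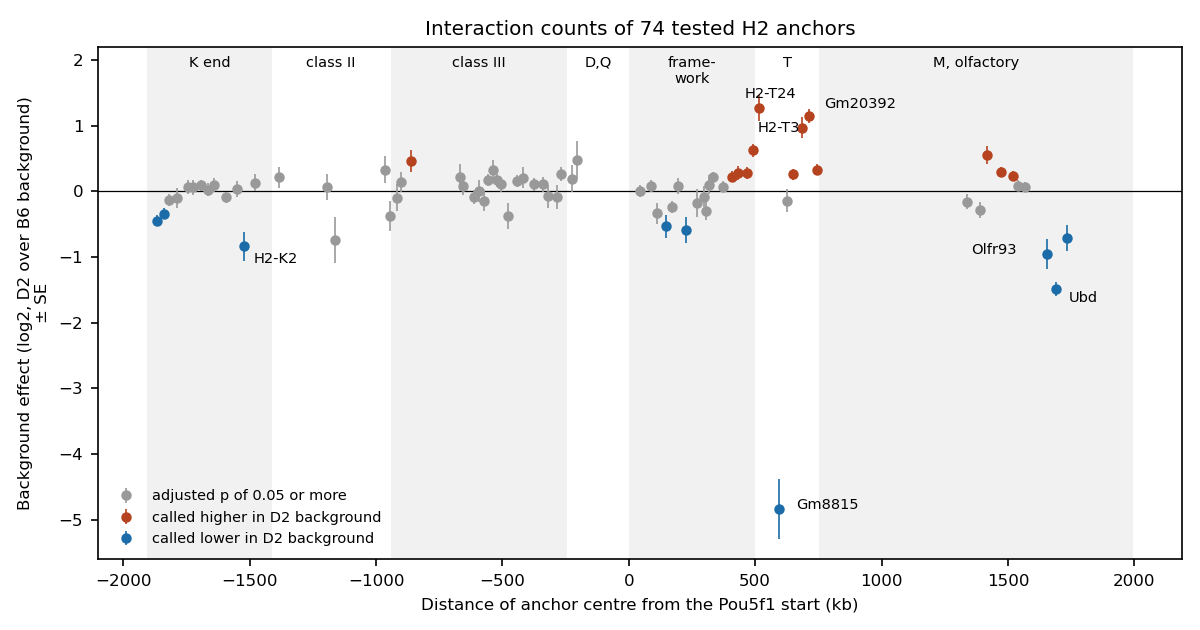
Background effect of each of the 74 tested anchors (log2 of D2 over B6 background, vertical axis, bars ± SE) against the distance of its centre from the Pou5f1 start in kb (horizontal axis), with the 7 segments shaded. Called anchors are red (13 higher) or blue (9 lower); the T segment holds 5 of the red ones, and Gm8815 and Ubd are the lowest points at -4.83 and -1.49.

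Among anchors, the 3 largest called rises in the region were in the T segment, at the class Ib genes H2-T24 and H2-T3 and at a stretch with class I pseudogenes. H2-T24 encodes a class I-like heavy chain, and its anchor (chr17:36020001-36025000, which holds the gene's start) had 23.8 and 21.6 CPM in the B6 libraries, 15.7 and 17.1 in B6-13D2, 51.7 and 36.6 in D2 and 49.2 and 49.4 in D2-13B6. All 4 libraries of D2 background were above all 4 of B6 background. The means were 19.5 ± 3.803 and 46.7 ± 6.87 CPM (SD, n = 4 libraries each), a log2 difference of 1.27 (SE 0.19, edgeR adjusted p = 1.12e-07).

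The anchor at H2-T3, which encodes the thymus leukaemia antigen, a class Ib protein of the gut epithelium and thymus, also rose (chr17:36190001-36195000). Its level was 33.1 and 34.3 CPM in B6, 25.1 and 39.5 in B6-13D2, 66.4 and 61.8 in D2 and 63.4 and 70.3 in D2-13B6. The backgrounds did not overlap, and the log2 difference was 0.97 (SE 0.16, edgeR adjusted p = 8.01e-07).

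Between H2-T3 and Rpp21 lies a stretch with class I pseudogenes and no protein-coding start. Its anchor (chr17:36215001-36225000) reaches the start of the unprocessed pseudogene Gm20392 and is called by that name here. It had 100.2 and 106 CPM in B6, 92.9 and 83.0 in B6-13D2, 191 and 233 in D2 and 214 and 201 in D2-13B6. Every D2-background library exceeded every B6-background library by more than the spread within either, with a log2 difference of 1.14 (SE 0.11, edgeR adjusted p = 6.79e-16).

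The next anchor, over Rpp21, a subunit of RNase P, and Trim39, a ubiquitin ligase, was higher by 0.33 (SE 0.08, adjusted p = 0.000545; chr17:36230001-36275000), and its 9 bins did not share the rise evenly. In the bin nearest Gm20392 (chr17:36230001-36235000) the level was 82.9 ± 8.41 CPM in B6 background and 181 ± 9.43 in D2 background (SD, n = 4 libraries each), a log2 ratio of 1.13. In the next bin it was 75.7 ± 3.56 and 109 ± 8.74 CPM. From chr17:36250001 on, through the starts of Rpp21 (103 and 104 CPM) and Trim39 (66.6 and 73.3 CPM), the log2 ratios were -0.17 to 0.14 and the backgrounds overlapped. The rise at this anchor was therefore on the side away from both genes, and the anchor was not called with replicates summed per line (adjusted p = 0.467). On the Gm20392 side of the gap, the bin at chr17:36215001-36220000 had 41.1 ± 8.48 and 122 ± 7.17 CPM. Values of bins are counts of pairs with an end in the bin and were not tested.

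**Figure D2:**
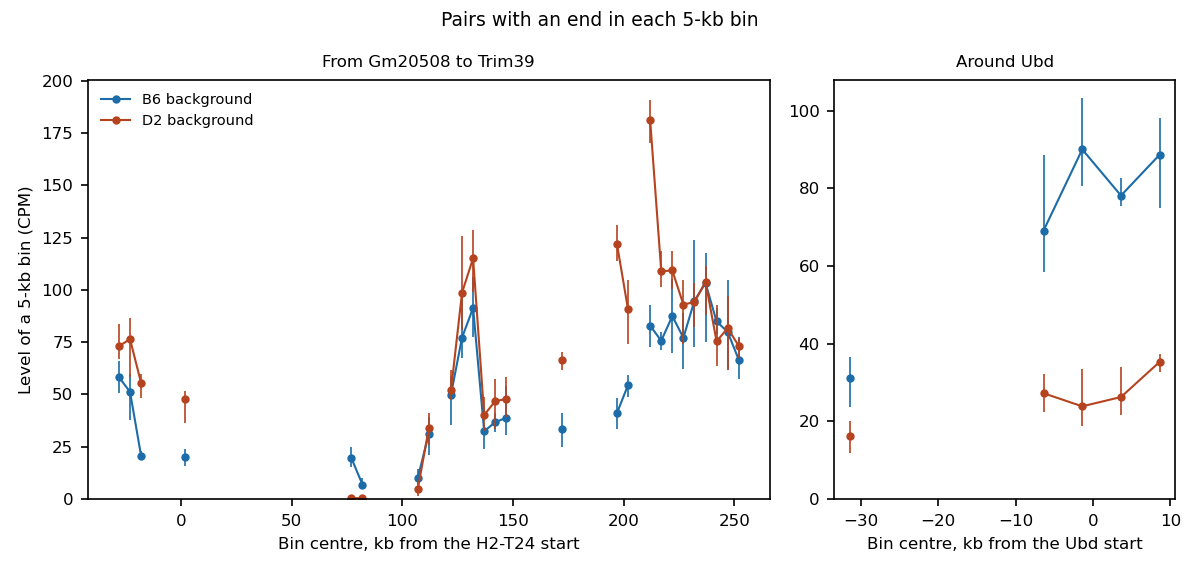
Level of single 5-kb bins (CPM, vertical axes) in B6 background (blue) and D2 background (red), against the distance of the bin centre from the start of H2-T24 (left, from Gm20508 to Trim39) or of Ubd (right); points are means of 4 libraries, bars span the lowest to the highest library, and lines join bins of 1 anchor. The D2 background is higher at the H2-T24, H2-T3 and Gm20392 anchors and in the 2 nearest bins of the Trim39 anchor, and lower in all 4 bins of the Ubd anchor.

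On the framework side of H2-T24, the anchor at the long non-coding RNA genes Gm20508 and A930015D03Rik (chr17:35990001-36005000) rose by 0.62 (SE 0.10, edgeR adjusted p = 5.84e-07). Its libraries ran from 109.6 to 139.5 CPM in B6 background and from 172 to 221 CPM in D2 background, with no overlap. Here too the bins differed: the one nearest H2-T24 had 20.7 ± 1.61 and 55.5 ± 5.07 CPM, a log2 ratio of 1.42, and the farthest had 58.3 ± 6.89 and 73.1 ± 7.49 CPM, a log2 ratio of 0.33. The anchor lost its call when the replicates of a line were summed to 1 library (0.63, adjusted p = 0.0577).

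Loops between these anchors rose as well. The loop of the Gm20392 and Rpp21/Trim39 anchors had 58.7 and 53.1 CPM in B6, 69.0 and 39.9 in B6-13D2, 125 and 163 in D2 and 138 and 128 in D2-13B6, a log2 difference of 1.34 (SE 0.13, edgeR adjusted p = 1.42e-21). The loop of the Gm20508 and H2-T24 anchors, 25 kb apart, had 3.09 and 2.66 CPM in B6, 6.18 and 6.65 in B6-13D2, 20.1 and 11.7 in D2 and 27.003 and 16.6 in D2-13B6, a log2 difference of 2.08 (SE 0.36, adjusted p = 4.99e-07), and was not called without a filter on low counts (adjusted p = 0.103). In both, the backgrounds did not overlap. The loop of H2-T3 with the anchor of Gm8909, a predicted class I gene, had 7.97 to 9.60 CPM in the 4 libraries of B6 background and 17.7 to 22.6 CPM in those of D2 background, a log2 difference of 1.11 (SE 0.29, adjusted p = 0.00377), which was called neither with DESeq2 (adjusted p = 0.122) nor without a filter (adjusted p = 0.127). All 7 tested loops of the Gm20392 anchor and all 11 of the Gm20508 anchor were above 0, and 3 of each were called, where 4.28% of loops of the genome were called higher. Loops of 1 anchor are not independent of each other.

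One anchor of the T segment went the other way and was near 0 in D2 background. It lies at the unprocessed class I pseudogenes Gm20530 and Gm8815 (chr17:36095001-36105000) and had 24 and 17 counts in B6, 24 and 45 in B6-13D2, 0 and 1 in D2 and 2 and 1 in D2-13B6. That is 110 counts against 4, a ratio of count rates of 30.2 (exact 95% interval 11.5 to 113, counting error only), with an edgeR adjusted p of 1.51e-15. The anchor passed the filter on counts through libraries of B6 background alone, as did its loops given next. Its loop with Gm8909 had 30 counts in B6 background and 1 in D2 background, a ratio of 32.9 (5.47 to 1343), and was not called without a filter on low counts (adjusted p = 0.153). Without D2 replicate 2 the fitted log2 difference moved from -4.83 to -6.15 for the anchor and from -4.64 to -6.01 for this loop, and both calls held. Its loop with the Rpp21/Trim39 anchor had 17 counts and 0, which is 6.22-fold lower in D2 background with the 0 set to 3 counts over the group. Counting error in the 17 is not included, so this is no lower limit. Only 40.2% of the 31-base words of this anchor occur once in the 21 chromosomes of GRCm38, a genome of C57BL/6J.

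Sequence copies were common in the T segment. Over its 7 anchors the share of 31-base words that occur once was 40.2% to 92.1% with a median of 77.1%, against a median of 90.6% over all 79 anchors and 93.5% over class III. The H2-T24 anchor had 90.8%, the Gm20392 anchor 92.1%, the H2-T3 anchor 77.1%, the Rpp21/Trim39 anchor 88.3%, the Gm20508 anchor 87.0%, the Ubd anchor 88.7% and the Zfp57 anchor 94.2%. How reads that match several places were treated, and whether reads of both backgrounds were matched to 1 genome, is not given in the sources used here, and the part of either in these differences was not tested.

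**Figure D3:**
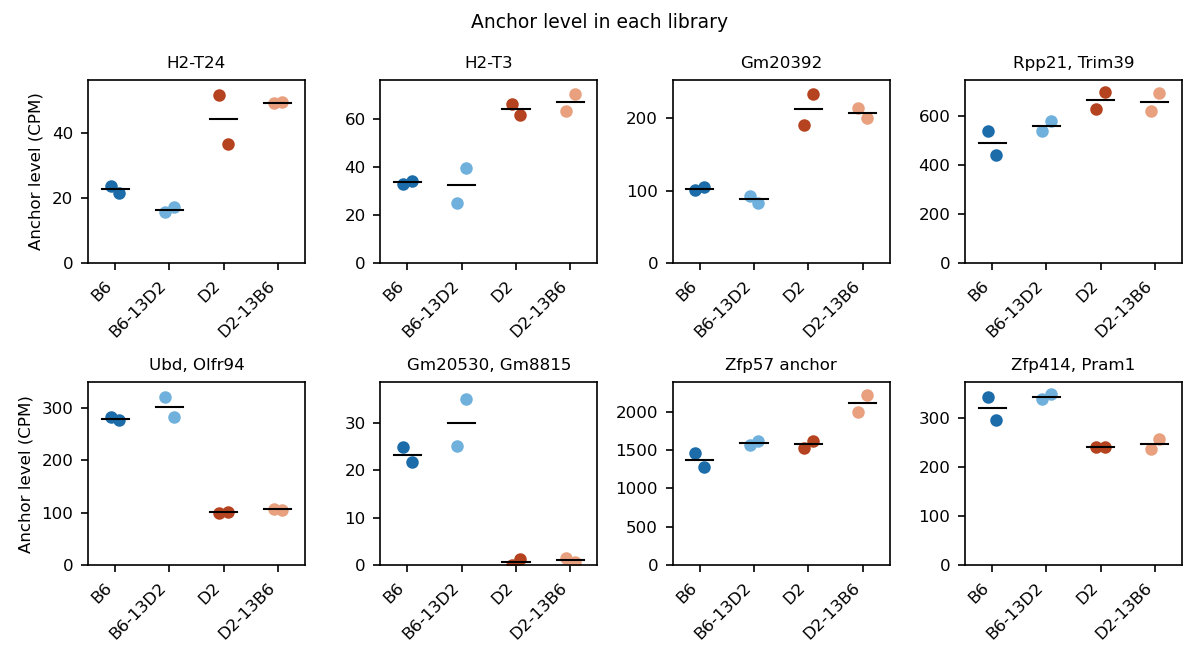
Level of 8 anchors (CPM, vertical axes from 0) in each library, by line; each point is 1 library and each black line the mean of 2 technical replicates. H2-T24, H2-T3 and Gm20392 are higher in both lines of D2 background and Ubd and Gm8815 lower, with no overlap of libraries, while the Zfp57 anchor is highest in D2-13B6 and overlaps.

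The largest fall among tested anchors with counts in every library was at Ubd, which encodes the ubiquitin-like modifier FAT10, a gene that interferon and TNF induce. The anchor (chr17:37185001-37205000) also holds the start of the olfactory receptor gene Olfr94. It had 282 and 276 CPM in B6, 320.4 and 282 in B6-13D2, 99.0 and 102 in D2 and 107 and 105 in D2-13B6. The means were 290.2 ± 20.4 and 103 ± 3.60 CPM (SD, n = 4 libraries each), so the level in B6 background was 2.80 times that in D2 background, with a log2 difference of -1.49 (SE 0.10, edgeR adjusted p = 6.5e-24). The difference was nearly the same in both pairs of lines, -1.47 for D2 against B6 and -1.50 for D2-13B6 against B6-13D2.

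All 4 bins of the Ubd anchor were lower in D2 background without overlap, and the bin that holds the Ubd start was lowest. There the level was 80.6 and 84.0 CPM in B6, 103 and 92.3 in B6-13D2, 21.4 and 18.9 in D2 and 33.56 and 21.7 in D2-13B6, a log2 ratio of -1.91. The other 3 bins had log2 ratios of -1.57, -1.34 and -1.33, the last in the bin of the Olfr94 start. The anchors on either side were lower too: that of Olfr93 fell by 0.95 (SE 0.22, adjusted p = 0.000481), from 23.8 to 36.5 CPM in B6 background to 11.9 to 20.2 CPM in D2 background, and that of Olfr97 fell by 0.71 (SE 0.20, adjusted p = 0.00383), from 32.0 to 43.8 CPM to 18.9 to 26.9 CPM. The Olfr97 anchor was not called with DESeq2 (adjusted p = 0.0908) or with replicates summed per line (adjusted p = 0.107).

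Of 12 tested loops of the Ubd anchor, all 12 were below 0 and 10 were called lower, where 4.57% of loops of the genome were. The one with the highest level in B6 background joined it to the 70-kb anchor of Zfp57, 215 kb away, with 77.2 and 81.0 CPM in B6, 69.0 and 58.3 in B6-13D2, 22.4 and 20.9 in D2 and 37.2 and 32.4 in D2-13B6, a log2 difference of -1.36 (SE 0.17, edgeR adjusted p = 1.12e-12). The loop to Olfr90 had 58.4 to 72.1 CPM in B6 background and 21.2 to 28.8 CPM in D2 background (-1.34, SE 0.18, adjusted p = 1.09e-11). Contacts inside the Ubd anchor had 25.2 to 45.3 CPM and 5.84 to 11.7 CPM (-1.99, SE 0.26, adjusted p = 2.58e-12), and the loop to the TRIM genes Trim40 and Trim31 had 9.30 to 14.4 CPM and 2.16 to 5.22 CPM (-1.65, SE 0.39, adjusted p = 0.000725). In these 4 loops the backgrounds did not overlap, and the last was called neither with DESeq2 (adjusted p = 0.0803) nor without a filter on low counts (adjusted p = 0.199). The 2 that were not called went to Gm8909, at -2.79 (SE 1.68), and to Trim26, at -0.39 (SE 0.40). The Zfp57 loop fell by 1.86 in D2 against B6 and by 0.85 in D2-13B6 against B6-13D2. Without a filter on low counts, most of the 10 calls among the loops of the Ubd anchor were lost.

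**Figure D4:**
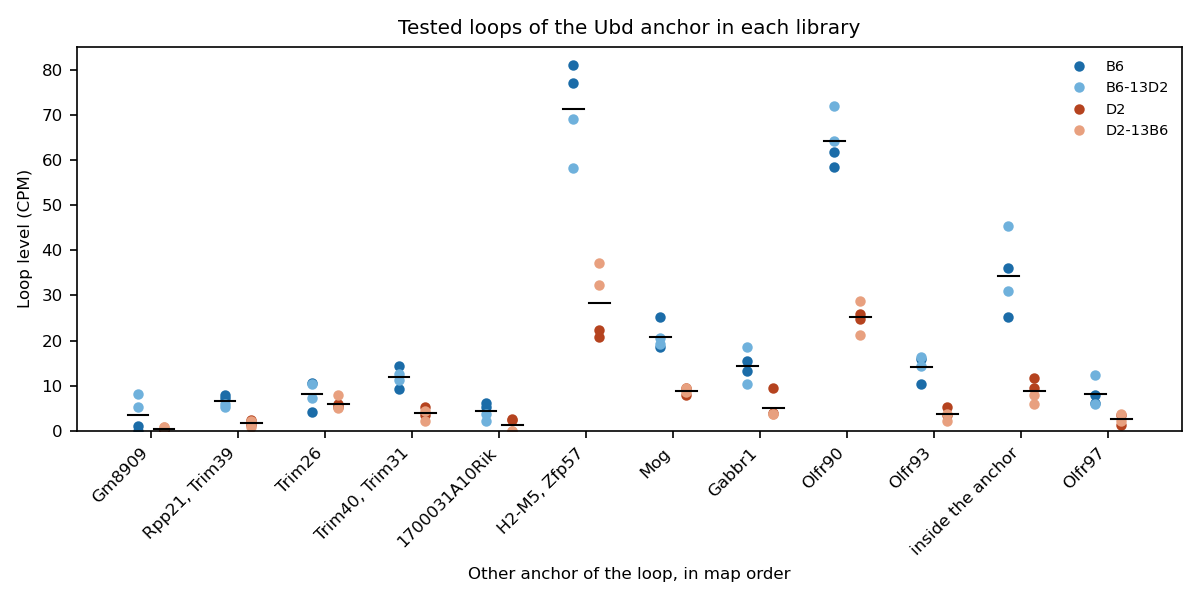
Level (CPM, vertical axis from 0) of the 12 tested loops of the Ubd anchor in each library, by the other anchor in map order (horizontal axis); blue points are the 4 libraries of B6 background, red points those of D2 background and black lines their means. The 3 loops of highest level in B6 background (Zfp57, Olfr90 and inside the anchor) do not overlap between backgrounds, and all 12 means are lower in D2 background.

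Zfp57 encodes a zinc finger protein that keeps DNA methylation at imprinted genes and is expressed in embryonic stem cells. Its anchor (chr17:36945001-37015000) is the widest of the region and also holds the starts of Ppp1r11, Znrd1 and the class Ib gene H2-M5. It had 1454 and 1281 CPM in B6, 1561 and 1620 in B6-13D2, 1531 and 1614 in D2 and 1990 and 2221 in D2-13B6. The call (0.30, SE 0.07, edgeR adjusted p = 0.000556) thus rests mostly on D2-13B6: D2 against B6 gave 0.20 and D2-13B6 against B6-13D2 0.40, and D2 overlapped B6-13D2. With replicates summed per line the adjusted p was 0.575. Contacts inside the anchor rose by 0.44 (SE 0.08, adjusted p = 1.89e-06), from 597 to 711 CPM in B6 background to 757 to 1128 CPM, with an adjusted p of 0.341 when replicates were summed and 0.606 without a filter on low counts. All 14 of its bins had a log2 ratio above 0, from 0.08 to 0.54, and in the bin of the Zfp57 start the means were 163.5 ± 11.5 and 217.5 ± 47.6 CPM. A neighbouring anchor at the non-coding gene 1700031A10Rik rose by 0.56 (SE 0.14, adjusted p = 0.00146), from 42.0 to 62.6 CPM to 69.7 to 80.5 CPM without overlap, and was not called with replicates summed (adjusted p = 0.117).

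In the framework segment, the anchor of Abcf1, a translation factor, with Gnl1 and Prr3 had 178 to 205 CPM in B6 background and 209 to 267 CPM in D2 background, a log2 difference of 0.28 (SE 0.09, edgeR adjusted p = 0.0204). Its call was lost with DESeq2, with replicates summed (adjusted p = 0.496) and without any 1 of 5 libraries (B6 replicate 2, D2 replicates 1 and 2, B6-13D2 replicate 1 and D2-13B6 replicate 2), with adjusted p of 0.0527 to 0.0822. Loops of this and a nearby anchor to the Gm20508 anchor rose: that of Abcf1 by 0.78 (SE 0.19, adjusted p = 0.000895; 24.7 to 29.5 CPM against 44.3 to 48.4 CPM), and that of Atat1, Mrps18b and Ppp1r10 by 0.89 (SE 0.27, adjusted p = 0.0186; 7.21 to 13.3 CPM against 16.5 to 26.3 CPM). The first was not called with DESeq2 (adjusted p = 0.0538), with summed replicates (adjusted p = 0.09) or without a filter on low counts (adjusted p = 0.127). The second was called by none of these (adjusted p of 0.229, 0.099 and 0.372), nor without B6 replicate 1, D2 replicate 2, B6-13D2 replicate 1 or D2-13B6 replicate 1 (adjusted p of 0.069 to 0.102). At Gm20483, a non-coding gene within the body of Sfta2, the anchor fell by 0.53 (SE 0.17, adjusted p = 0.0154), from 40.7 to 52.7 CPM to 26.1 to 40.3 CPM, and was not called without B6 replicate 1, D2 replicate 1 or D2-13B6 replicate 1 (adjusted p of 0.0634 to 0.123), with DESeq2 (adjusted p = 0.193) or with summed replicates (adjusted p = 0.206).

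At the K end, 3 of 13 tested anchors fell and none rose, where 13.0% of anchors of the genome were called lower and 11.9% higher. The anchor of Zfp414 and Pram1 had 343 and 295 CPM in B6, 337 and 349 in B6-13D2, 239.5 and 239.5 in D2 and 237 and 257 in D2-13B6, a log2 difference of -0.45 (SE 0.09, edgeR adjusted p = 2.68e-05). The anchor in the body of Hnrnpm, which encodes a splicing regulator, fell by 0.34 (SE 0.09, adjusted p = 0.00126; 312 to 370.5 CPM against 251 to 291 CPM), while the anchor at the Hnrnpm start was at -0.13 (SE 0.09, adjusted p = 0.34). The loop between the Zfp414 anchor and the body of Hnrnpm had 91.6 to 101 CPM and 63.7 to 70.4 CPM, a fall of 0.51 (SE 0.13, adjusted p = 0.00362). With replicates summed per line these 3 falls had adjusted p of 0.212, 0.382 and 0.268. The third anchor, at the class I pseudogene H2-K2, fell by 0.84 (SE 0.22, adjusted p = 0.00208), from 26.7 to 38.2 CPM to 10.08 to 25.9 CPM, and was at -0.59 (adjusted p = 0.0661) without D2 replicate 2. It was not called with DESeq2 (adjusted p = 0.0851) or summed replicates (adjusted p = 0.0557), and the loop of Zfp414 and Hnrnpm was called neither with DESeq2 (adjusted p = 0.0633) nor without a filter on low counts (adjusted p = 0.174).

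The class Ia genes had no anchor at their start. H2-K1 started 14.7 kb and H2-D1 12.3 kb from the nearest member anchor. Of 25 class Ib genes, 5 had an anchor within 5 kb, of which 3 were called higher (H2-T24, H2-T3 and H2-M5, the last in the Zfp57 anchor) and 1 lower (H2-K2), where 11.9% and 13.0% of anchors of the genome were called, and H2-T10 was not called. H2-T23, H2-M3 and H2-Q1 had none, at 7.86, 25.2 and 15.4 kb. Of 10 class II genes in the region, 3 (H2-DMa, H2-Eb1 and H2-Ea-ps) had an anchor and none was called, where 24.8% of anchors of the genome were. Of the 5 antigen processing genes only Tapbp, a chaperone of class I loading, had one, which it shared with Daxx and 6 other coding starts, while Tap1, Tap2, Psmb8 and Psmb9 lay 62.6 to 78.5 kb from the nearest. A start without an anchor is one where no loop is listed, and contacts too few to be detected at this depth cannot be told apart from none.

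Class III genes had many anchors and nearly no called difference. The Hsp70 genes Hspa1a, Hspa1b and Hspa1l lay at 2 anchors with log2 differences of 0.32 (SE 0.15, edgeR adjusted p = 0.123) and 0.17 (SE 0.09, adjusted p = 0.18). In the TNF cluster, Tnf and Lta had no anchor within 5 kb, Ltb and Lst1 shared one at -0.07 (adjusted p = 0.818), and Nfkbil1 lay in one with the RNA helicase gene Ddx39b at 0.27 (SE 0.11, adjusted p = 0.0626). That last anchor was called with the trend on abundance removed (adjusted p = 0.0269), with chromosome 11 left out (adjusted p = 0.0455), without contacts inside the anchor (adjusted p = 0.0481) and without B6 replicate 1 (adjusted p = 0.00193). Of 5 complement and steroid genes, C2 had an anchor, shared with the histone methyltransferase gene Ehmt2, at -0.09 (SE 0.10, adjusted p = 0.587).

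Of 14 chromatin and transcription factor genes in the region, 12 had an anchor, on 10 anchors, and 2 of these were called, both higher (11.9% of anchors of the genome were called higher), those of Atf6b (0.46, SE 0.17, edgeR adjusted p = 0.0335) and Zfp57. The Atf6b call was lost with DESeq2 (adjusted p = 0.265), with replicates summed (0.47, adjusted p = 0.256) and without B6 replicate 1, D2 replicate 1, B6-13D2 replicate 2 or either D2-13B6 replicate (adjusted p of 0.0743 to 0.341). Ring1 with Rxrb was at 0.13 (SE 0.13, adjusted p = 0.496), Daxx at -0.09 (SE 0.08, adjusted p = 0.429), and the anchor of the bromodomain gene Brd2 and H2-DMa at 0.21 (SE 0.16, adjusted p = 0.356). The bins of that anchor went opposite ways, untested: the bin of the Brd2 start had 19.8 to 27.9 CPM in B6 background and 31.5 to 35.2 CPM in D2 background (log2 ratio 0.52), without overlap, and that of the H2-DMa start had overlapping levels (log2 ratio -0.21). Tcf19 lay 13.2 kb from the nearest anchor, after the loops near Pou5f1 were left out. All 20 genes for RNA and protein synthesis had an anchor, on 17 anchors, of which 4 were called higher, at 0.23 to 0.33, and none lower (11.9% and 13.0% of anchors of the genome). These 4 include the Rpp21/Trim39 anchor, whose bin at the Rpp21 start had 103 and 104 CPM, and the Zfp57 anchor, which the class Ib and chromatin lists also hold. Of these 4, 2 were called with DESeq2, 0 with replicates summed per line and 2 to 4 without a library; the anchor of Mrps18b and Ppp1r10 lost its call without any library but B6 replicate 1 and B6-13D2 replicate 1 (adjusted p of 0.0733 to 0.167) and, like that of Abcf1, with DESeq2. The median log2 difference was 0.11 in both lists, against 0.08 over the tested anchors of the region and 0.00 over all anchors. Of 6 TRIM genes 4 had an anchor, on 3 anchors, and that of Trim39 alone was called, higher (11.9% of anchors of the genome were). Of 14 other framework genes on 11 anchors, that of the myelin gene Mog alone was called, higher (0.24, adjusted p = 0.0182), against the same 11.9% of the genome. That call was lost with DESeq2 (adjusted p = 0.0623), with replicates summed (adjusted p = 0.659) and without replicate 2 of any of the 4 lines (adjusted p of 0.0538 to 0.115).

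As shares of the region's counts in a library, loops within the T segment were higher and loops within the K end lower in every library of D2 background. Loops within the T segment held 6.44% and 6.13% of the region's counts in B6, 6.31% and 6.63% in B6-13D2, 8.33% and 8.67% in D2 and 7.49% and 7.76% in D2-13B6. Loops within the K end held 22.4%, 20.8%, 22.7% and 23.002% in the B6-background libraries and 19.3%, 19.6%, 19.99% and 19.8% in those of D2 background. In each case the backgrounds did not overlap, with means of 6.38% ± 0.21 and 8.06% ± 0.53 for T and 22.2% ± 0.97 and 19.7% ± 0.30 for the K end (SD, n = 4 libraries each). Both gave p = 0.0286 in a two-sided exact permutation test of 4 against 4 libraries, the smallest p that test can give. After adjustment over the 10 shares tested the p of that test was 0.143, which does not pass. The test treats the technical replicates of a line as separate units, which they are not. The share of a whole library in the region was 0.709% ± 0.046 in B6 background and 0.767% ± 0.039 in D2 background (exact permutation p = 0.143, adjusted 0.357).

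The background effect can be read from 2 pairs of lines that share no library. D2 against B6 gave 10 called anchors (13.5%, where 11.8% of anchors of the genome were called) and 5 called loops (1.68%, against 2.65%). D2-13B6 against B6-13D2 gave 27 called anchors (36.5%, against 24.6%) and 28 called loops (9.40%, against 8.54%), with 982278 to 1425304 counts in each library where the first pair had 737955 to 952040. All 5 loops called in the first pair were called in the second with the same sign, as were 8 of the 10 anchors. Of those called in the second pair, 24 of 28 loops and 23 of 27 anchors had the same sign in the first. The anchors of Rpp21/Trim39 and Sapcd1 were called in D2 against B6 only, and Sapcd1 had opposite signs (-0.86 and 0.12). Over all 74 tested anchors 45 had the same sign in both pairs, with a Pearson correlation of 0.85 and a Spearman correlation of 0.50 across anchors, which are not independent replicates. Over all 298 tested loops 170 had the same sign, with a Pearson correlation of 0.44 and a Spearman correlation of 0.27.

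**Figure D5:**
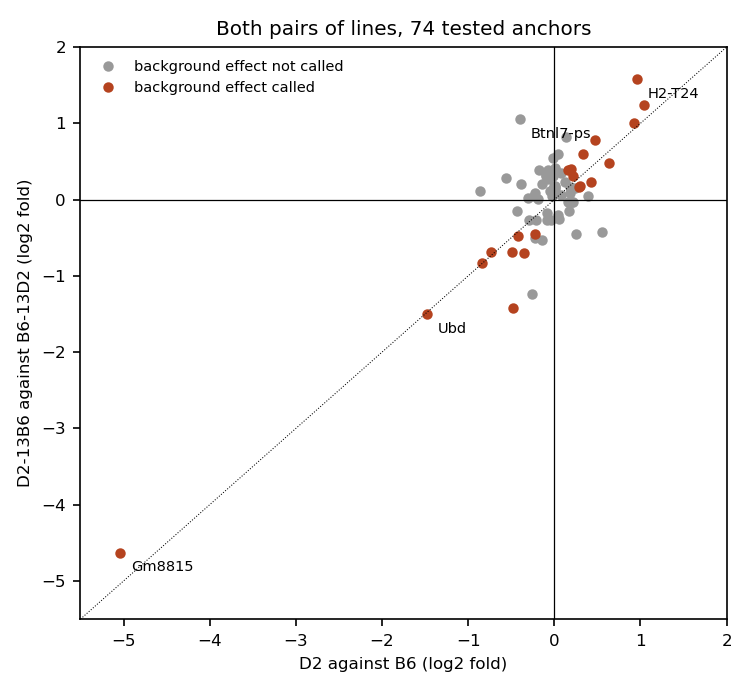
Log2 difference of each of the 74 tested anchors in D2 against B6 (horizontal axis) and in D2-13B6 against B6-13D2 (vertical axis), with called background effects in red; the dotted line marks equal values. Gm8815 and Ubd lie near the line at the lower left and H2-T24 at the upper right, while Btnl7-ps is at -0.40 and 1.06.

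The chromosome 13 interval was tested as the mean of its effect in both backgrounds, D2 allele minus B6 allele. None of the 298 member loops was called by edgeR (0.989% of loops of the genome were), with 18 at an unadjusted p under 0.05 (4760 of 44706 over the genome), and none by DESeq2. Of 74 anchors 1 was called (1.35%, against 6.25% of the genome), at the butyrophilin-like pseudogene Btnl7-ps (chr17:34535001-34550000), and 10 had an unadjusted p under 0.05 (4094 of 21210 over the genome). Its level was 37.2 and 33.1 CPM in B6, 16.7 and 16.3 in B6-13D2, 24.7 and 29.0 in D2 and 38.0 and 30.7 in D2-13B6. Both lines with the B6 allele of the interval were above both lines with the D2 allele, by 0.73 on the log2 scale (SE 0.20, edgeR adjusted p = 0.0162). The call was lost without B6 replicate 1, D2 replicate 1, D2 replicate 2 or D2-13B6 replicate 1 (adjusted p of 0.0501 to 0.107). In this anchor 58.7% of 31-base words occur once in the genome. The difference between both pairs of lines is 2 times this interval effect and is the same test.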

How the data were processed

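H3K27ac HiChIP was done on 8 libraries, 2 technical replicates of each of 4 lines. The authors deposited whole-number counts of read pairs per loop, and their processing notes name BWA 0.7.18, SAMtools 1.19.2, edgeR 3.34.1 and the build mm10 with no role given. How reads with several matches were placed, and the calling of anchors, are not given in the sources used here. Counts were fitted over the whole table with edgeR 4.0.16 in R 4.3.3 (TMM, quasi-likelihood test, 1 mean per line) at a Benjamini-Hochberg adjusted p of 0.05, after a filter of 5 counts (loops) or 10 (anchors) in at least 2 libraries. Listed pairs lie at least 10 kb apart. Gene positions are from GENCODE M21. The code was tested on simulated data: at 44706 loops 30% of 2-fold and 96% of 4-fold changes were recovered, and at 21210 anchors 87% and 100%. Replicate numbers did not pair the lines (correlations of deviations -0.15 to 0.03). Members and gene lists were chosen with earlier results of these data known. Named were, for the background effect, called members without overlap, up to 8 anchors and 6 loops each way by adjusted p (loops skipping midpoints within 20 kb), called members for the interval, and listed genes. Gm8909, Sapcd1, Mog, Atf6b, the Olfr90 anchor and the loops of Ubd to Gm8909 and Trim26 were named after their values were seen. Immune cell markers are not reported here.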

Additional observations from a re-analysis of the deposited data

Results flagged for a closer look

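In 94 groups of 4 libraries of a background, 7 held 1 library far from the other 3 by Dixon's criterion, which chance alone meets in about 1 in 20 groups. The H2-T24 anchor had 36.6 CPM in D2 replicate 2 against 49.2 to 51.7 CPM in the other libraries of D2 background. The Ubd anchor had 320.4 CPM in B6-13D2 replicate 1 against 276 to 282 CPM in the other libraries of B6 background. The Zfp414 anchor had 257 CPM in D2-13B6 replicate 2 against 237 to 239.5 CPM, the anchor of C2 and Ehmt2 174 CPM in the same library against 139 to 142 CPM, and the anchor of H2-DMa and Brd2 52.2 CPM in D2-13B6 replicate 1 against 47.9 to 48.6 CPM. The loop of Gm8909 with H2-T3 had 22.6 CPM in D2-13B6 replicate 1 against 17.7 to 18.3 CPM, and that of Gm8815 with Gm8909 had 1.30 CPM in D2 replicate 2 against 0 in the others.

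At the Btnl7-ps anchor the effect of the background differed between both pairs of lines, by -1.45 on the log2 scale (D2 against B6 minus D2-13B6 against B6-13D2; edgeR adjusted p = 0.0162).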

How the results depend on the processing

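For the background effect, 29 loops were called; without a filter 4 were, with DESeq2 8, with replicates summed per line 13, and leaving out a library in turn 19 (D2 replicate 2) to 25. Of 22 anchors called, DESeq2 gave 12, summed replicates 6, and leaving out a library 16 to 20. In the main fit 8.85% of loops and 24.8% of anchors of the genome were called. Genome shares under the other settings are not given here. These counts therefore do not show whether the losses are particular to the region. For D2 against B6, loops numbered 5 against 1 without a filter and 3 with DESeq2 (3 to 5 without a library), and anchors 10 against 3 with DESeq2 (5 to 10). For D2-13B6 against B6-13D2, loops numbered 28 against 0 without a filter and 4 with DESeq2 (11, without D2-13B6 replicate 1, to 29), and anchors 27 against 10 with DESeq2 (11, without D2-13B6 replicate 2, to 28). For the interval effect and for the difference between pairs, which is the same test, loops ranged from 0 to 2 and anchors from 0 to 6 without a library (6 without B6 replicate 2), with 1 anchor in the main fit and 0 with DESeq2. The causes were not tested. Without a filter more loops were tested. Summing left line totals only, so differences were set against the spread between lines of a background and no longer between replicates. With the replicate number as a block 26 loops and 21 anchors were called for the background effect, and all 29 named calls held, while the Mrps18b and Ppp1r10 anchor was not called (adjusted p = 0.0586, and 0.0667 without a filter). All 29 also held with RLE size factors, library totals, the trend removed or chromosome 11 left out. Of the named calls, 14 of 28 held with replicates summed, 18 of 27 with DESeq2, and without a filter 21 of 29, with 4 of 12 loops held; none changed sign. A tested member loop had a median of 6 to 11 counts in a library.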
